A study of Mus musculus with 23 samples.

Results

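The 9 genes described here lie in a pair of stretches of the mouse genome, 5 on chromosome 3 and 4 on chromosome 2, out of 52636 genes counted in RNA-seq of mouse hippocampus. On chromosome 3 they are the long non-coding RNA genes Gm43049, Gm32754 and 4930590L14Rik, the testis gene Pdha2 and the axon guidance receptor gene Unc5c. On chromosome 2 they are Prnp, Prnd and Prn of the prion protein locus and the pseudogene Lamr1-ps1 beside it. They were listed by name and position after the difference between P301S and wild-type (WT) mice in these same libraries had been seen. Their genotype values are therefore given as a description, with no test. The comparisons between oxygen groups and the genes around them, with the listed genes themselves left out, were open to a test. The working name for these genes calls them loci of a transgene insertion and of the prion promoter. Counts per gene show reads aligned to annotated positions of the reference genome. They do not show which copy of a sequence a read came from, or where a transgene sits.

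The 23 libraries fall into 4 groups: WT mice in normoxia (6 libraries), WT mice in hypoxia (6), P301S mice in normoxia (5) and P301S mice in hypoxia (6). P301S stands for a mutant form of human tau, and by its title the series studied chronic intermittent hypoxia, in which oxygen falls and returns in cycles. All 4 groups share a mixed background of C57Bl6 and Balbc. The labels name neither the mouse line nor the promoter, copy number or site of the transgene, and they give no regimen of hypoxia, age or sex. Whether the libraries are from different mice is not stated either, and a p-value here reflects how far libraries vary, which may be partly technical. The titles carry a number with no stated meaning. In WT normoxia 5 of 6 libraries share 1 number, in WT hypoxia 4 share 1 and 2 another, and none occurs in both, so what it marks and hypoxia cannot be told apart in WT. Each P301S library has a number of its own. The tissue label reads brain and the protocol names whole hippocampus. All 10 hippocampal neuron markers listed had counts in every group, with a summed level per library of 1248 to 1707 CPM (counts scaled to library size). Total counts ran from 19134422 to 25820145 per library. Choroid plexus markers varied widely in every group, from a summed 70.3 to 3785 CPM per library, with 1 of the 15 at 0. Mapt, the mouse tau gene, passed no genotype test (edgeR quasi-likelihood test, Benjamini-Hochberg adjusted p = 0.558 in normoxia and 0.837 in hypoxia). It does not check the label, since reads of human tau need not be counted there.

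Prnp encodes the prion protein, a membrane protein abundant in neurons, and its promoter is active throughout the brain. For that reason vectors built on the mouse prion gene, with its promoter and some flanking sequence, are a common way to express a human protein in mouse neurons, tau among them. Transgenes injected into the fertilised egg usually enter the genome as an array of copies at a site that is not chosen. These points are background, and no value here measures a copy number, a junction or a promoter's activity. Reads from such copies can align to the mouse sequence they carry. Whether any were counted at Prn or Lamr1-ps1 was not tested, so their levels are not known to come from chromosome 2.

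Of the 9 genes, 5 had far more counts in P301S than in WT: Gm43049, Gm32754 and 4930590L14Rik on chromosome 3 and Prn and Lamr1-ps1 on chromosome 2. In each of the 5, every P301S library lay above every WT library. Among the 17788 genes that passed the filter on low counts, 6 differed between genotypes by more than 3 on the log2 scale in both normoxia and hypoxia, and these 5 were all but one of them. The other was Cldn34c1, a claudin-family gene on chromosome X, with 472 counts in WT and 23 in P301S. Unc5c, between them and the next expressed gene on chromosome 3, had overlapping levels in the genotypes. Pdha2, Prnp and Prnd had at most 2 counts over all 23 libraries. Reads in Prnp and Prnd were dropped, as described below, so their counts give no level. Only 10 genes (0.0562% of those tested) had all P301S libraries above all WT libraries. The rule used that contrast, so the share is given as background alone. The map of summed counts along each locus shows these 9 genes with the annotated genes among them.

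**Figure D1:**
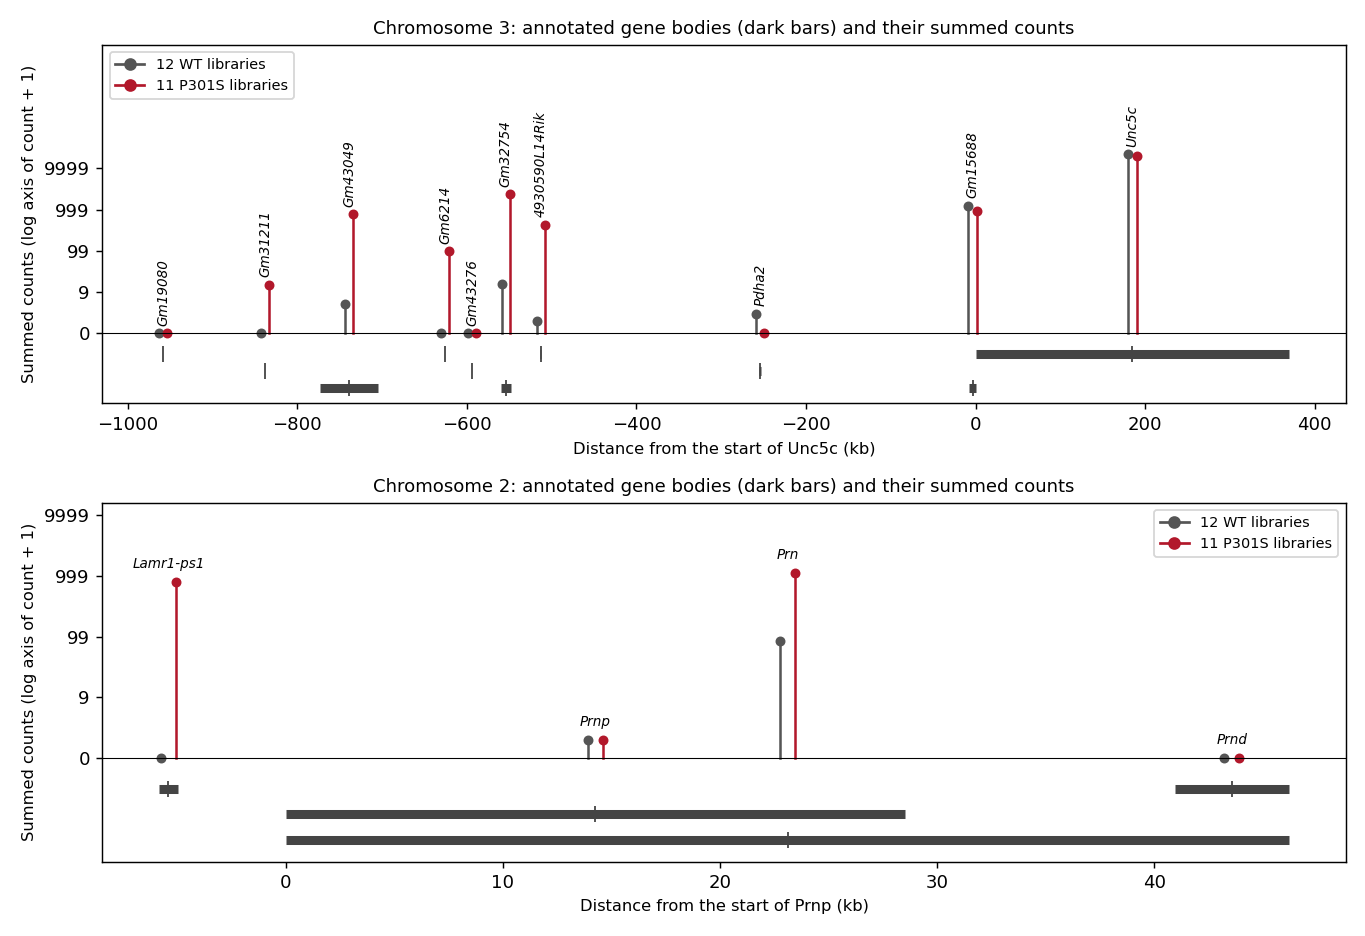
Summed counts of annotated genes (log axis of count + 1) against distance from the start of Unc5c (top, chromosome 3) and of Prnp (bottom, chromosome 2) in kb, for 12 WT libraries (grey) and 11 P301S libraries (red). Dark bars mark gene bodies, with a tick at each centre and the paired stems set slightly apart. From Gm31211 to 4930590L14Rik most stems are high in P301S alone, while Gm15688 and Unc5c are high in both genotypes.

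The reference start-site sequences of the listed genes are shown as a description. That 5 of the genes are high in the same libraries follows from how they were chosen, and a shared promoter was not tested. Each stretch runs from 250 bases before to 50 bases after an annotated start (RefSeq, GRCm38.p6), written 5′ to 3′ on the gene's own strand. Capitals mark 3 promoter motifs searched on both strands: the GC box (GGGCGG), the CCAAT box (CCAAT) and the TATA box (TATAAA). Such a stretch was given for 7 of the 9 genes. None was given for Gm43049 and Lamr1-ps1, which are among the 5 high genes. Prn and Prnp share theirs. It lies on the plus strand at chr2:131909678-131909977.
Prnp and Prn: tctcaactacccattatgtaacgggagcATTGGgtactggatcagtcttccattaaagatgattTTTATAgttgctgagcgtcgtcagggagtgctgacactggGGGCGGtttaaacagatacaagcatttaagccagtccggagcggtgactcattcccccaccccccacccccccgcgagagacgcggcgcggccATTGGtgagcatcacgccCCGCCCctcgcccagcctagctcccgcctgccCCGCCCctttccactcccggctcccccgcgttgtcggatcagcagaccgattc
This stretch holds 3 GC boxes, 2 CCAAT boxes and 1 TATA box, and 60% of its bases are G or C. The stretches of a pair of the long non-coding RNA genes are at chr3:140917269-140917568 (Gm32754, minus strand) and chr3:140951585-140951884 (4930590L14Rik, plus strand).
Gm32754: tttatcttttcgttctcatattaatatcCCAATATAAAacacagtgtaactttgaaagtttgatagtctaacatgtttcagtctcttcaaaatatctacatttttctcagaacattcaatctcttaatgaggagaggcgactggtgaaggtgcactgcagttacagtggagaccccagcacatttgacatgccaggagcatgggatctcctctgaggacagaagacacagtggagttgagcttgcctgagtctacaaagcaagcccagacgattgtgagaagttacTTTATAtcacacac
4930590L14Rik: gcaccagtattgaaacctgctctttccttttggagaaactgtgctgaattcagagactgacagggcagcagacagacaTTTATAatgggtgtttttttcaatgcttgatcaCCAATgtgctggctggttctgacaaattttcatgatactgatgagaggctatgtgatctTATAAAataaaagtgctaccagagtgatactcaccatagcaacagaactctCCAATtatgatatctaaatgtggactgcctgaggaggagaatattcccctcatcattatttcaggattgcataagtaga
Gm32754 has no GC box, 1 CCAAT box and 2 TATA boxes, and its first CCAAT and TATA boxes overlap. 4930590L14Rik has no GC box, 2 CCAAT boxes and 2 TATA boxes. Their G and C content was 40.7% and 39.7%, against a median of 52.7% over all 32817 annotated promoters of this length. Of those promoters, 35.6% hold the GC box, 37.4% the CCAAT box and 13.6% the TATA box on either strand. Among the genes whose stretches are not printed, G and C content was 29.7% for Pdha2, 68.3% for Unc5c and 57.7% and 60% for Prnd. Pdha2, which is not high in P301S, also had 1 TATA box and no GC box. Unc5c had none of the motifs, and Prnd had no GC or TATA box. A match is a run of letters and not a site of binding. It was counted at any distance from the start, before or after it, and on either strand. These sequences are of the reference genome and not of the mice studied.

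The 3 long non-coding RNA genes of chromosome 3 have no function known here. Gm32754 (ENSMUSG00000104544, chromosome 3, 140904998 to 140917459, GRCm38, minus strand, 4 exon blocks) is the most counted of them. In WT normoxia its 6 libraries had 0, 2, 2, 2, 0 and 0 counts, and in WT hypoxia 3, 1, 0, 2, 0 and 3. In P301S normoxia the 5 libraries had 197, 252, 224, 250 and 263 counts, which is 8.47, 10.8, 9.32, 9.54 and 10.4 CPM. In P301S hypoxia the level was 7.10 CPM at the lowest, 7.98 at the median and 8.41 at the highest. No WT library came near the lowest P301S library. Summed counts were 15 in WT and 2338 in P301S, a ratio per library size of 165 (95% interval from counting error alone, 99.7 to 295).

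Gm43049 (ENSMUSG00000105777, chromosome 3, 140692038 to 140760704, minus strand) spans 68.7 kb, 144 kb below Gm32754 in coordinate. It had 4 counts over 3 of the 12 WT libraries, and 9 of them were at 0. In P301S normoxia it had 50, 81, 83, 81 and 119 counts (2.15, 3.48, 3.45, 3.09 and 4.68 CPM). In P301S hypoxia it ranged from 2.05 CPM through a median of 2.43 to 2.88. The genotypes did not overlap, and the P301S normoxia group was the more spread, with a coefficient of variation of 27.0% against the 10.99% that counting alone gives for its mean count. The ratio of P301S to WT was 204 (79.4 to 751 from counting error).

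4930590L14Rik (ENSMUSG00000106540, chromosome 3, 140951876 to 140953247, plus strand) is a gene of 1.37 kb, 34.4 kb above Gm32754 and on the opposite strand. Its only WT count fell in 1 library of WT hypoxia. In P301S normoxia it had 33, 45, 31, 44 and 42 counts (1.42, 1.93, 1.29, 1.68 and 1.65 CPM), and in P301S hypoxia it ran from 1.43 CPM through 1.46 to 2.10. All 11 P301S libraries had at least 31 counts. The ratio of 449 rests on that 1 WT count and has a counting interval of 80.2 to 17789. The coefficient of variation was 15.6% in P301S normoxia and 16.8% in P301S hypoxia, and counting alone gives 16.0% and 16.2%.

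Between the last expressed gene before this stretch, Stpg2, and Unc5c the annotation holds 14 genes, of which 9 had any count. Gm31211 and Gm6214, processed pseudogenes that failed the filter on low counts, were also at 0 in all 12 WT libraries. They were singled out after their values were seen. Gm6214 (chromosome 3, 140839097 to 140839637), between Gm43049 and Gm32754, had 5 to 16 counts in each of the 11 P301S libraries, 96 in all. Gm31211 (140627180 to 140627432), 64.6 kb below Gm43049, had 14 counts over 7 P301S libraries. The pseudogene Gm43276, between Gm6214 and Gm32754, had 0 counts in either genotype. The nearest transcripts in the reference were Zcchc10 for Gm6214 (83.2% identity over 482 bases) and Ufm1 for Gm31211 (88.2% over 254 bases). Whether reads of those genes were placed here was not tested.

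Pdha2 (chromosome 3, 141210004 to 141212355, minus strand) is the testis form of the E1 alpha subunit of pyruvate dehydrogenase. It lies 257 kb above 4930590L14Rik and 253 kb below Unc5c. It had 1 count in each of 2 WT libraries and 0 in the 11 P301S libraries. At 3 counts over a group the floor is 0.0245 CPM in P301S normoxia and 0.0205 in P301S hypoxia, so any difference was not detectable at this depth. Genes of the same enzyme were otherwise measured. Among all tested genes 3.78% were called lower in P301S in normoxia and 0.528% higher in hypoxia. Of the 12 other listed genes of the pyruvate dehydrogenase complex and its kinases and phosphatases, 1 was lower in P301S in normoxia and 1 higher in hypoxia, with a median log2 difference of 0.0070 and 0.042 (0.0097 and 0.00042 over all genes tested). They were Pdhb, the E1 beta subunit (-0.15, SE 0.041, adjusted p = 0.034), and Pdk4, an inhibitory kinase (0.49, SE 0.112, adjusted p = 0.025). Pdhb lost its call under 9 of 31 alternatives (adjusted p = 0.514 at the highest) and Pdk4 under 8 (0.22).

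Unc5c (ENSMUSG00000059921, chromosome 3, 141465216 to 141834924, plus strand) encodes a receptor for netrin that steers growing axons away from their source. Among the 6 tested genes of the list it was the only one with a high level in both genotypes. In WT normoxia it was at 63.3 CPM at the lowest, 70.9 at the median and 88.6 at the highest, and in WT hypoxia at 71.7, 82.3 and 86.2. In P301S normoxia the 5 libraries had 60.9, 87.3, 65.1, 64.0 and 80.0 CPM, and P301S hypoxia ran from 73.5 through 77.4 to 85.9. The ranges overlapped throughout. The log2 difference between P301S and WT was -0.021 (SE 0.087) in normoxia and -0.048 (SE 0.083) in hypoxia. Over 31 alternatives it ran from -0.18 to 0.043 in normoxia and from -0.14 to 0.043 in hypoxia. Among the 583 tested genes within 1.5 times the length of Unc5c, 62 were higher and 0 lower in P301S in normoxia, with a median of 0.12, so genes of this length stood above the median of all genes (0.0097). Of all tested genes 2.57% were higher and 3.78% lower there.

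Gm15688, an antisense gene over the start of Unc5c, had 1251 counts in WT and 930 in P301S. Its log2 difference was -0.31 (adjusted p = 0.242) in normoxia and -0.42 (adjusted p = 0.106) in hypoxia. Counting used no strand, so in the short stretch that Gm15688 shares with Unc5c the reads of the pair cannot be told apart. Reads in more than 1 gene are dropped, and 6.15% of the length of Unc5c, nearly all of it under Gm15689 and Gm43826 inside the gene, gave it no counts. Of the other netrin receptors and ligands, Dcc, the receptor for attraction, was the one that passed the test in normoxia (0.46, SE 0.088, adjusted p = 0.00509). It lost that call where the trend with gene length was removed (adjusted p = 0.145). Of all tested genes 6.35% passed in normoxia and 1.87% in hypoxia. In hypoxia 0 of the 13 passed, and Dscam had the lowest p of them (0.15, adjusted p = 0.0884). The median of the 13, Unc5c included, was 0.11 in normoxia and 0.090 in hypoxia.

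At the prion locus the layout of the annotation decides what could be counted. Prn (ENSMUSG00000098754, chromosome 2, 131909957 to 131956130, plus strand) is a gene model that reads through from Prnp into Prnd, the gene of doppel, a relative of the prion protein made mainly in testis. Since its body covers Prnp and Prnd, reads in those genes fall in more than 1 gene and were dropped. What is left to Prn is the 12.4 kb between them, chromosome 2, 131938430 to 131950860, which is intron of the read-through transcript or sequence beyond the end of Prnp. Prnp (131909928 to 131938429) keeps 29 bases of its own and had 1 count in WT and 1 in P301S. Prnd (131950861 to 131956130) keeps none and had 0 counts in all 23 libraries. These counts say nothing of the level of prion protein RNA in any group. Of the family, Sprn, which encodes the relative shadoo, was measured, and its log2 difference was -0.12 (adjusted p = 0.248) in normoxia and 0.063 (adjusted p = 0.591) in hypoxia.

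In that 12.4 kb, Prn had 7, 7, 5, 6, 8 and 1 counts in the libraries of WT normoxia and 7, 8, 10, 7, 8 and 9 in those of WT hypoxia. In P301S normoxia it had 82, 81, 80, 123 and 118 (3.53, 3.48, 3.33, 4.69 and 4.65 CPM). In P301S hypoxia the level was 2.56 CPM at the lowest, 4.67 at the median and 5.79 at the highest. Every WT library had a count, unlike at the other 4 genes that were high in P301S, and the highest WT library (0.400 CPM) stayed well below the lowest P301S library. The ratio was 14.2 (11.3 to 17.9 from counting error).

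Lamr1-ps1 (ENSMUSG00000081229, chromosome 2, 131904086 to 131904959, plus strand) ends 4.97 kb before the start of Prnp. It is a processed pseudogene of Rpsa, the gene of the laminin receptor, which is also a protein of the small ribosomal subunit. In P301S normoxia it had 66, 35, 72, 94 and 98 counts (2.84, 1.502, 2.99, 3.59 and 3.86 CPM). In P301S hypoxia it ran from 2.24 CPM through a median of 2.88 to 3.65. All 12 WT libraries were at 0. With the WT libraries set together at a floor of 3 counts in place of 0, the P301S level was 283-fold higher. The floor is a setting and not a strict limit, and the spread of the P301S libraries is not in that value.

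The sequence of Lamr1-ps1 is shown beside that of Rpsa, its abundant parent, at a stretch chosen for its differences. It is the window of 60 bases without gaps, within the coding part of Rpsa, that holds the most substitutions. It is therefore not typical of the whole alignment, whose identity is given below it. Whether reads of either gene were placed on the other was not tested. The 60 bases below are from GENCODE M21 transcripts, at chr2:131904132-131904191 of GRCm38 for Lamr1-ps1 and bases 228 to 287 of an Rpsa transcript, and capitals mark the 21 bases that differ.
Lamr1-ps1: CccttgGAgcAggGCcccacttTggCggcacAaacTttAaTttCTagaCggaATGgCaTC
Rpsa: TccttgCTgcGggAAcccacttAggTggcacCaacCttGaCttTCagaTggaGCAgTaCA
Over 900 aligned positions the pair were 71.7% identical, and the longest identical run was 25 bases, against reads of 100 bases. Rpsa itself was lower in P301S, at 225 ± 11.9 CPM in WT normoxia (SD, n = 6) and 189 ± 22.2 in P301S normoxia (n = 5), while Lamr1-ps1 went from 0 counts upwards. The log2 difference of Rpsa was -0.25 (SE 0.068, adjusted p = 0.0302) in normoxia and -0.33 (SE 0.064, adjusted p = 0.00975) in hypoxia. It lost its call under 11 of 31 alternatives in normoxia (adjusted p = 0.151 at the highest) and in hypoxia without the 6 libraries lowest in choroid plexus markers (0.171).

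**Figure D2:**
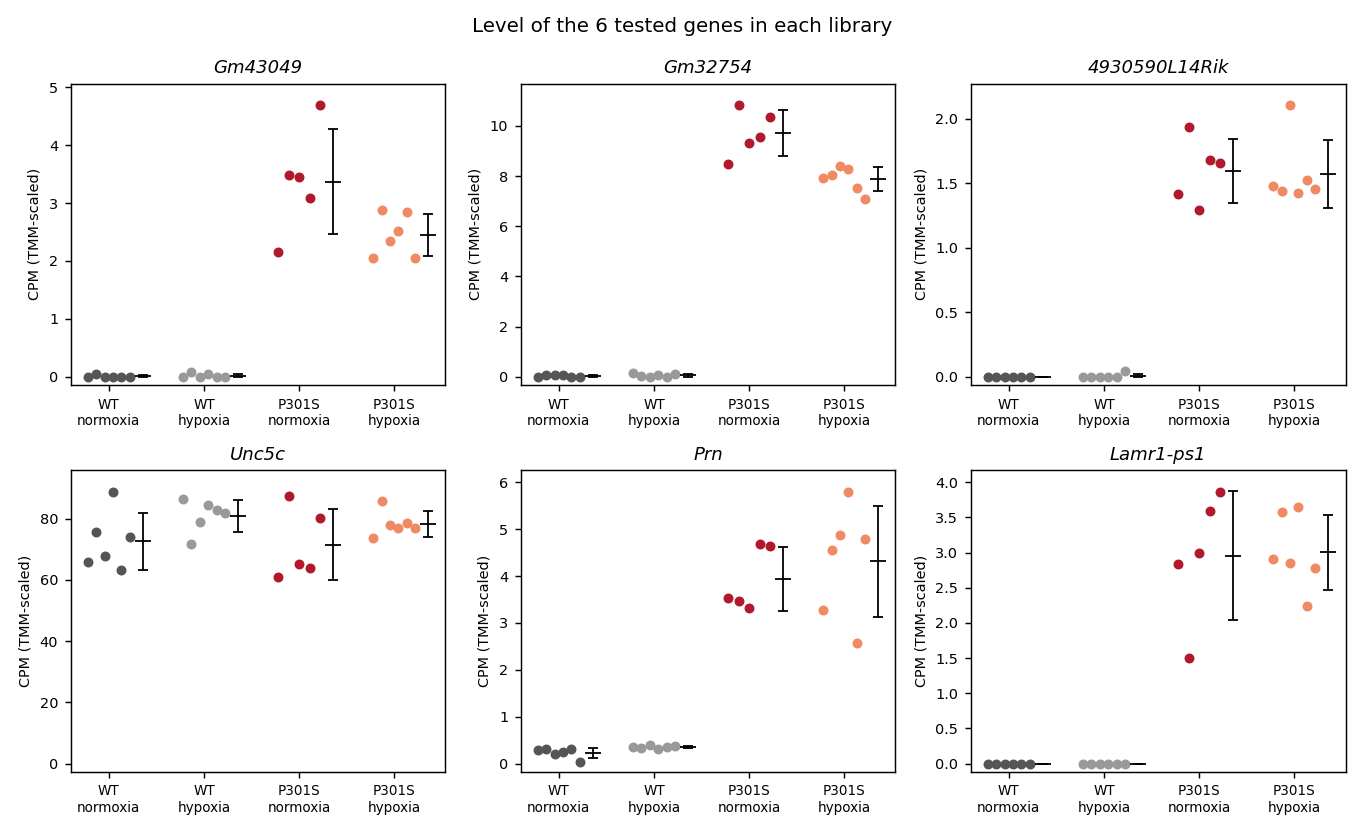
Level in CPM of the 6 genes that passed the filter on low counts, 1 point per library, with the mean and SD of each group as a bar beside the points (cut at 0). The 11 P301S libraries stand above the 12 WT libraries for 5 genes, and Unc5c overlaps in all 4 groups.

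Levels of different genes were compared per kb of the sequence in which a gene could be counted, introns included. In P301S normoxia Lamr1-ps1 had the highest level at 3.38 ± 1.05 CPM per kb (SD, n = 5), followed by 4930590L14Rik at 1.16 ± 0.181 and Gm32754 at 0.778 ± 0.0734. Prn came next at 0.316 ± 0.0543, then Unc5c at 0.206 ± 0.0332, with Gm43049 last at 0.0491 ± 0.0133. Each of the 5 steps between neighbours in this order is larger than the SD of either gene. In P301S hypoxia the order was the same (3.43 ± 0.606, 1.14 ± 0.192, 0.632 ± 0.0392, 0.347 ± 0.0946, 0.226 ± 0.0119 and 0.0356 ± 0.00533, n = 6). This order holds for the gene body with introns and turns when levels are taken per kb of exons, a scale chosen after seeing the data, without Prn, whose countable part is not its exons. In P301S normoxia Gm32754 was then highest at 13.2 ± 1.24 CPM per exon kb (SD, n = 5) and 4930590L14Rik lowest at 1.91 ± 0.298. Unc5c (3.73 ± 0.602), Gm43049 (3.60 ± 0.972) and Lamr1-ps1 (3.38 ± 1.05) lay within their SDs of each other. In bulk tissue, more cells with a transcript and more of it per cell cannot be told apart.

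The genes around each locus were chosen by position and not by their own values, and they were tested. The described genes were left out of them, and the loci were listed after the genotype difference had been seen. The genotype counts below therefore cover only the genes left beside those that stood out. Within 5 Mb of the chromosome 3 genes, 63 other genes were tested, and in P301S against WT 1 was higher and 1 lower in normoxia, with 0 higher and 1 lower in hypoxia. Within 5 Mb of the chromosome 2 genes, 117 were tested, with 3 higher and 6 lower in normoxia and 0 higher and 1 lower in hypoxia. Among all tested genes 6.35% were called in normoxia (2.57% higher and 3.78% lower) and 1.87% in hypoxia (0.528% higher and 1.34% lower), against 11 and 2 of these 180 neighbours. On chromosome 3 the calls in normoxia were Gm5857 (higher) and Adh5 (lower). On chromosome 2 they were 4930402H24Rik, Plcb1 and Pak7 (higher) and Mtln, AI847159, Mrps26, Itpa, Gfra4 and Spef1 (lower), and in hypoxia Snrpb was lower. All but Adh5 are named after their values were seen. For hypoxia against normoxia, Mertk, a receptor for clearance of dying cells on chromosome 2, was the 1 neighbour called in P301S (0.51, adjusted p = 0.0438), and 0 were called in WT. That count was 0 without any one of WT normoxia replicate 2, WT hypoxia replicate 4, P301S normoxia replicates 2 to 4 and P301S hypoxia replicates 1 to 5.

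The count of 11 moved with single libraries. It was 21 without WT normoxia replicate 1 and 18 without P301S normoxia replicate 1. It was 2 without P301S normoxia replicate 2, and 4 to 6 when any other library of P301S normoxia, or WT normoxia replicate 2, 3, 5 or 6, was left out. The count of 2 in hypoxia was 0 without WT hypoxia replicate 2, and it was 1 without WT hypoxia replicate 1 or 5 or without P301S hypoxia replicate 2, 3 or 4.

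With the described genes left out, none of the 4 nearest tested genes on each side of either locus passed a genotype test. On chromosome 3, Stpg2, a sperm-tail gene 982 kb below Gm43049, had a log2 difference of 0.028 in normoxia and -0.16 in hypoxia (adjusted p = 0.967 and 0.808). Bmpr1b, a receptor for bone morphogenetic proteins that begins 2.21 kb beyond Unc5c, had 0.019 and 0.033 (adjusted p = 0.900 and 0.841). The other nearest genes, Eif4e, Tspan5, Rap1gds1, Pdlim5, Gbp5 and Gbp7, lay between -0.026 and 0.15, with adjusted p of at least 0.13. On chromosome 2, Erv3, 44.3 kb before Lamr1-ps1, had -0.093 and 0.13 (adjusted p = 0.925 and 0.894). Rassf2, which begins 33.3 kb beyond Prnd, had 0.098 and 0.0098 (adjusted p = 0.589 and 0.970). The others there, Gm14285, Gm14280, 5330413P13Rik, Slc23a2, Gm14051 and Tmem230, lay between -0.59 and 0.34, and the lowest adjusted p was 0.0727 for Gm14285 in normoxia.

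Adh5, an alcohol dehydrogenase that acts on glutathione-bound formaldehyde, 2.24 Mb below Gm43049 (chromosome 3, 138443093 to 138455499), was the 1 neighbour called in both normoxia and hypoxia. It was at 45.8 ± 2.22 CPM in WT normoxia (SD, n = 6), 40.9 ± 1.67 in P301S normoxia (n = 5), 47.8 ± 1.83 in WT hypoxia (n = 6) and 42.1 ± 1.48 in P301S hypoxia (n = 6). Its log2 difference was -0.16 (SE 0.043, adjusted p = 0.0271) in normoxia and -0.18 (SE 0.041, adjusted p = 0.0222) in hypoxia. The call was lost under 9 of 31 alternatives in normoxia (adjusted p = 0.139 at the highest) and 5 in hypoxia (0.214), with the sign kept in all.

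**Figure D3:**
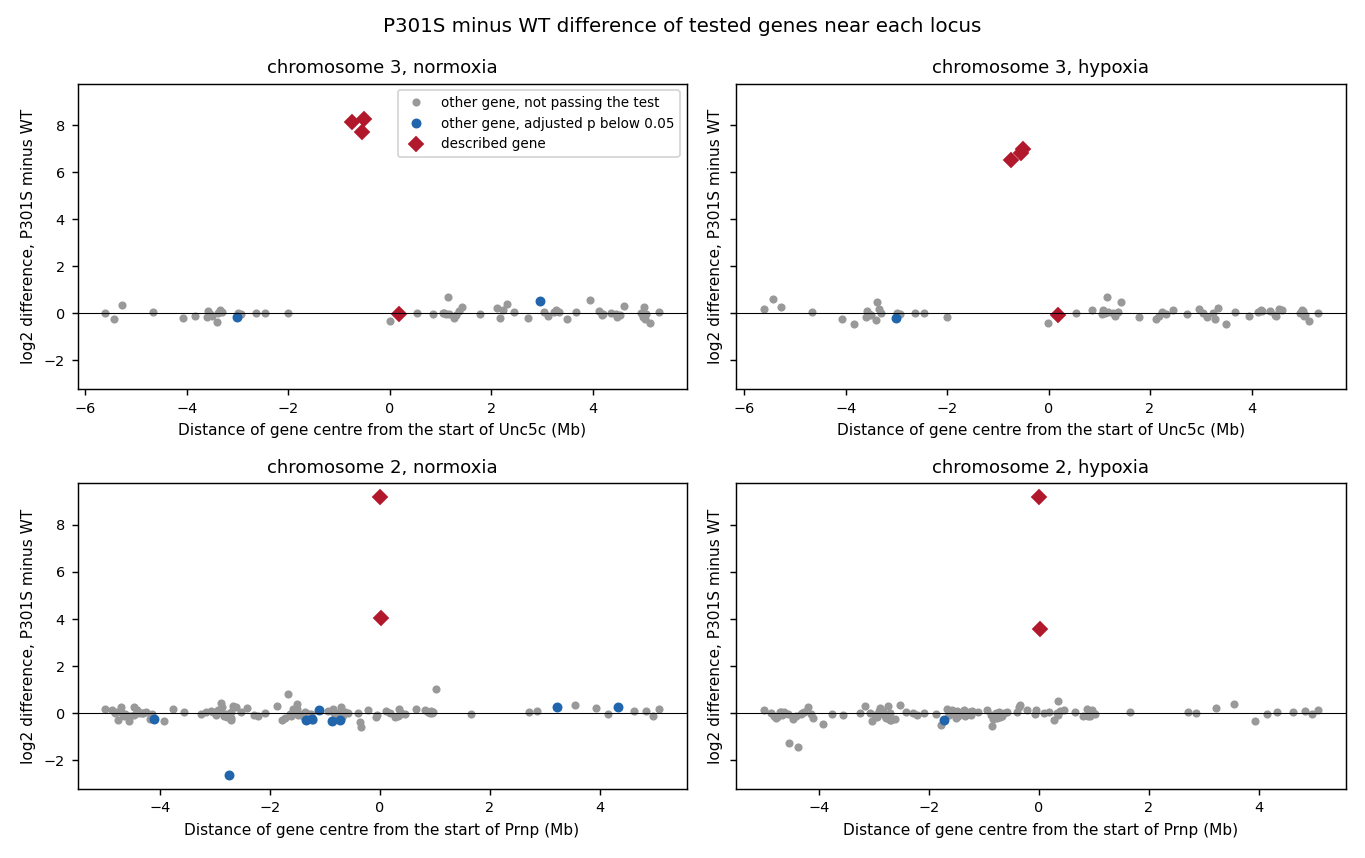
P301S minus WT log2 difference of each tested gene against the distance of its centre from the start of Unc5c (top) or of Prnp (bottom) in Mb, in normoxia (left) and hypoxia (right). Red diamonds are the described genes, blue points other genes with an adjusted p below 0.05 and grey points the rest. The red points other than Unc5c lie between 3.57 and 9.17, and all other genes in view lie between -2.62 and 1.03.

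Hypoxia was a comparison that had no part in the choice of these genes. In P301S, 0 of the 6 tested genes passed the edgeR quasi-likelihood test of hypoxia against normoxia, where 0.41% of all tested genes did. Of the 6, 5 passed the filter on low counts only through their P301S libraries. The lowest p among them was that of Gm32754. It was at 9.70 ± 0.915 CPM in P301S normoxia (SD, n = 5) and 7.88 ± 0.489 in P301S hypoxia (n = 6), with each normoxia library above each hypoxia library. Its log2 difference was -0.30 (SE 0.103, unadjusted p = 0.00599, adjusted p = 0.168), and 1.12% of all tested genes were lower in hypoxia without overlap. Over 31 alternatives its log2 difference lay between -0.35 and -0.26 and its adjusted p between 0.0745 and 0.532.

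Gm43049 had a log2 difference of -0.47 between hypoxia and normoxia in P301S (SE 0.167, unadjusted p = 0.00947, adjusted p = 0.196), from 3.37 ± 0.910 CPM (n = 5) to 2.45 ± 0.366 (n = 6), with overlap. Its adjusted p lay between 0.0649 and 0.399 over the 31 alternatives. 4930590L14Rik, the third long non-coding RNA gene, had -0.020 (SE 0.162, adjusted p = 0.966). On chromosome 2, Prn had 0.12 (SE 0.156, adjusted p = 0.764) and Lamr1-ps1 0.0097 (SE 0.201, adjusted p = 0.987). For 4930590L14Rik and Lamr1-ps1 the sign changed under some alternatives. Unc5c had 0.13 (SE 0.087, adjusted p = 0.52). The mean choroid plexus score was 0.57 in P301S normoxia and -0.63 in P301S hypoxia. With that score as a covariate the log2 differences of Gm32754 and Gm43049 were -0.34 (adjusted p = 0.148) and -0.45 (adjusted p = 0.29).

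In WT, where 0.0731% of all tested genes were called, only Unc5c and Prn had counts enough to read, and the title numbers move with hypoxia there. Unc5c had a log2 difference of 0.16 (SE 0.083, adjusted p = 0.471) and Prn of 0.61 (SE 0.462, adjusted p = 0.636), the latter with 1 to 10 counts per library. The difference of the hypoxia effects between genotypes was -0.027 (SE 0.12, adjusted p = 0.972) for Unc5c and -0.49 (SE 0.485, adjusted p = 0.805) for Prn, in a contrast that called 0.0394% of all tested genes. In the plot of oxygen differences these SEs stand beside those of P301S. At an unadjusted p under 0.05, Gm32754 and Gm43049 in P301S passed among these 10 values. The share of all tested genes under that p was 13.8% for hypoxia in P301S, 11.6% in WT and 9.43% for the difference of effects. DESeq2 called 0 of the 6 genes for hypoxia in P301S.

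**Figure D4:**
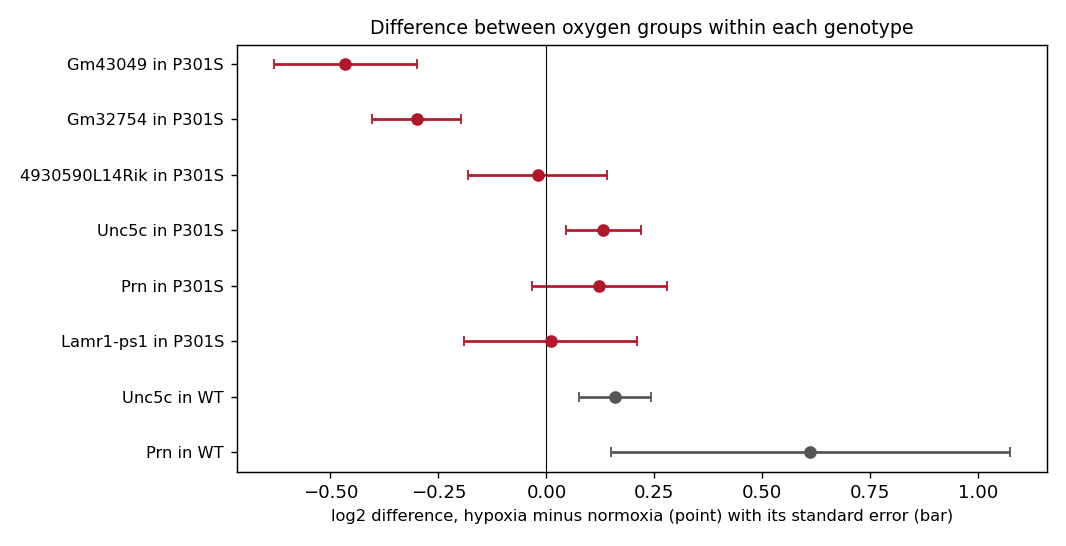
Log2 difference, hypoxia minus normoxia, of the tested genes in P301S (red) and of Unc5c and Prn in WT (grey). Bars are standard errors. Gm43049 (-0.47) and Gm32754 (-0.30) lie farthest below 0 and Prn in WT (0.61), with the widest bar, farthest above.

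The genes most like each of the 5 high genes over the 23 libraries were others of the 5, with Pearson r of 0.97 to 0.99 in log2 CPM. This follows from how they were chosen. For Unc5c the most like genes were Lancl2 (r = 0.78), Dck (0.76) and Pls3 (0.75), none of them on chromosome 3. These r share library depth and the 4 groups and are a description.

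Whether the genes vary together among P301S libraries is a separate measure, taken over 11 libraries with the mean of each oxygen group removed. There were 15 pairs of the 6 tested genes, with r from -0.38 to 0.74, and 12 of the pairs were positive. By a permutation test with 100000 resamples 0 of the 15 pairs passed after Benjamini-Hochberg adjustment, and 2 had a raw p of r under 0.05. They were Prn with Lamr1-ps1 (r = 0.58, p = 0.0178, rho = 0.64, p = 0.0324) and Gm32754 with Unc5c (r = 0.74, p = 0.0316, rho = 0.67, p = 0.0781). The adjusted permutation p was 0.217 for r in each of these pairs, and 0.243 and 0.378 for rho. Without the 2 libraries farthest from the median of the first gene, r was 0.60 for Prn with Lamr1-ps1. For Gm32754 with Unc5c it was 0.29, a lower r, though leaving out those libraries also narrows the range of Gm32754. Leaving out any single library gave r of 0.60 to 0.81 for that pair, with an adjusted permutation p of at least 0.181. Gm43049 with Unc5c had r = 0.69 (permutation p = 0.0501, adjusted p = 0.217) and rho = 0.77 (permutation p = 0.0077, adjusted p = 0.116), and r = 0.58 without the 2 farthest. Gm32754 and 4930590L14Rik, 34.4 kb apart, had r = 0.63 (permutation p = 0.0579, adjusted p = 0.217) with rho = 0.57 (permutation p = 0.122, adjusted p = 0.378), and r = 0.43 without the 2 farthest. The spread of 4930590L14Rik in each P301S group was near that of counting alone, as given above. For Gm32754 the coefficient of variation was 9.43% in P301S normoxia and 6.21% in P301S hypoxia, where counting alone gives 6.49% and 7.22%. Much of what this r compares can thus be counting error, and it says little either way. The 3 negative pairs were all between Lamr1-ps1 and a chromosome 3 gene (Gm32754, 4930590L14Rik and Unc5c, r of -0.12, -0.37 and -0.38). All 3 were above 0 without P301S normoxia replicate 2 (0.67, 0.079 and 0.49), the library lowest in Lamr1-ps1.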

How the data were processed

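The authors deposited unnormalized counts per gene. Per the file headers, the authors made these counts with featureCounts 1.6.2 over whole gene bodies of Ensembl release 90 (GRCm38), introns included, with no strand setting and from alignments marked as free of duplicates; by that tool's default, reads in more than 1 gene are dropped. The submitters' processing notes name HISAT2, mm10 and DESeq2 1.6.3. The members and gene lists were chosen with earlier results of these data known. Named genes are the 9 members, Mapt, Rpsa, the 4 nearest tested genes on each side of a locus, neighbours within 5 Mb called in both genotype contrasts the list members of lowest p and the 3 genes most like each member; the 2 pseudogenes, Cldn34c1 and the other neighbours called were added after seeing values.

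Genes were kept by filterByExpr (minimum count 10), which left 17788. TMM scaling gave factors of 0.961 to 1.03. One edgeR 4.0.16 quasi-likelihood model in R 4.3.3, with 4 group means over all 23 libraries, gave 5 two-sided contrasts, called at a Benjamini-Hochberg adjusted p below 0.05. Standard errors came from the log2 difference and its F statistic. The script was tested on simulated data. CPM are per TMM-scaled library; correlations used log2 CPM with a prior count of 2. Ratio intervals (95%) and floors (3 counts) cover counting error only. Replicate numbers follow accession order and pair nothing. Alternatives were RLE scaling, DESeq2 1.42.0, no filter on low counts, a choroid plexus covariate, removal of the trend with gene length, only the groups compared, other windows and leaving out each library. The older deviances of edgeR, leaving out the 6 libraries lowest in choroid plexus markers and levels per kb of exons were added after seeing the data.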

Additional observations from a re-analysis of the deposited data

Results flagged for a closer look

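In P301S hypoxia, replicate 3 had 2.10 CPM of 4930590L14Rik, far from the other 5 libraries, which lay between 1.43 and 1.52. In P301S normoxia, replicate 4 had 43.8 CPM of Adh5, with the other 4 between 39.7 and 40.8. In P301S normoxia, replicate 3 had 0.666 CPM of Gm6214 (16 counts), with the other 4 between 0.215 and 0.343. These are 3 of 34 groups of values examined for a single distant library, and chance marks about 1 in 20 such groups.

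The untested pseudogenes Gm6214 and Gm31211 had 96 and 14 counts in the P301S libraries and 0 in the WT libraries. They lie outside the comparisons because they failed the filter on low counts.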

How the results depend on the processing

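For hypoxia in P301S 0 of the 6 tested genes were called under the 31 alternatives run. In WT and for the difference of hypoxia effects the same held for Unc5c and Prn; the WT counts of the other 4 are too low for those contrasts to show anything. The 11 neighbours called in normoxia became 4 with no filter on low counts, 3 with the trend with gene length removed, 3 with only the groups compared, 17 with DESeq2 and 2 without the 6 libraries lowest in choroid plexus markers; windows of 1, 2 and 10 Mb gave 3, 5 and 17. The 2 called in hypoxia became 0 with the length trend removed, 1 with only the groups compared and 0 without those 6 libraries, and 0, 1 and 5 in the windows. The 1 neighbour called for hypoxia in P301S became 0 with no filter, with the choroid covariate and with only the groups compared, and 3 with DESeq2; in WT DESeq2 gave 2 instead of 0. Leaving out each library gave 2 to 21 and 0 to 3 neighbours in normoxia and hypoxia, 0 to 1 for hypoxia in P301S and 0 to 1 in WT. The cause was not tested.

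Over all genes, called counts ran from 313 to 2069 in normoxia (1130 as reported) and from 16 to 854 in hypoxia (333). For hypoxia they ran from 7 to 363 in P301S (73) and from 0 to 151 in WT (13), and for the difference of effects from 0 to 52 (7).

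Signs turned for values near 0. Lamr1-ps1 under hypoxia in P301S was -0.032 with the choroid covariate, -0.031 with the length trend removed and -0.055 without the 6 libraries, and -0.15 to 0.12 leaving out single libraries. 4930590L14Rik was 0.037 without the 6 libraries, and -0.13 to 0.054 leaving out single ones. The difference of hypoxia effects of Unc5c was 0.041 with the length trend removed, and -0.093 to 0.055 leaving out single libraries. Mapt in normoxia was -0.020 with the length trend removed. Correlations turned sign leaving out single libraries for Gm43049 with Prn (-0.11 to 0.40), with 4930590L14Rik (-0.037 to 0.29) and with Lamr1-ps1 (-0.18 to 0.39), for Lamr1-ps1 with Gm32754 (-0.30 to 0.67), 4930590L14Rik (-0.48 to 0.079) and Unc5c (-0.67 to 0.49), and for Unc5c with Prn (-0.039 to 0.27, and -0.019 with no TMM).

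No paired analysis was possible because replicate numbers were given in accession order and no title number occurs in more than 1 group. Depth limits Pdha2, at 2 counts, and every WT value of the 3 long non-coding RNA genes. For Prnp and Prnd the limit is the overlap with Prn.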
